A study of Mus musculus with 16 samples.

Results

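The 10 genes followed here write, copy or remove DNA methylation or place the repressive Polycomb mark on histone H3, and were measured in mouse colon organoids, which are epithelial cultures grown from intestinal crypts. They were Dnmt1, Uhrf1, Hells, Dnmt3a, Dnmt3b, Tet1, Tet2, Tet3, Ezh1 and Ezh2. They were chosen by name, for what the enzymes do, but with earlier results of these data known, and make up 10 of the 54123 genes in the tables. All 10 passed the filter on low counts and were among the 15289 genes tested. The 16 libraries formed 8 groups of 2 replicates: both colon regions (proximal, distal), both guides (Scramble-sgRNA, Cdx2-sgRNA) and both media (WENR-minus, WENR-plus). WENR-plus supplies Wnt3a, EGF, Noggin and R-spondin 1, and WENR-minus lacks these 4 niche factors. Per the methods, organoids were derived from 2 female mice, 8 weeks old, that carried heterozygous Cre-inducible BrafV600E and tdTomato alleles, and no Cre step is described for these libraries. All organoids received Cas9 by lentivirus with blasticidin selection, and those with Cdx2-sgRNA were single-cell-derived clones with a frameshift in both Cdx2 alleles. No cloning step is described for Scramble-sgRNA organoids, so clonality and guide cannot be told apart. In month 4 of culture, 2 days with all niche factors came before 3 days in the final medium for every group. Per the methods, both replicates come from independent mice, but the labels do not say which replicate number is which mouse. The p-values of the main test rest on the spread between the 2 samples of a group, estimated jointly over all 8 groups. Permutation p-values for ratios and transcript shares rest on the spread between cultures.

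DNA methylation is copied at each cell division by Dnmt1, which Uhrf1 brings to half-methylated DNA behind the replication fork, while the chromatin remodeller Hells opens packed DNA for it. Dnmt3a and Dnmt3b set methylation on new sites, and the Tet enzymes oxidise methylcytosine, a step that leads to its removal by base excision repair. Ezh1 and Ezh2 are alternative catalytic subunits of Polycomb repressive complex 2 (PRC2), which methylates lysine 27 of histone H3, and in many tissues Ezh2 is the form of dividing cells and Ezh1 that of resting cells. In the intestine, dividing stem and progenitor cells lie at the crypt base and differentiated cells at its top.

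Total counts per library lay between 12465194 and 18922143, with a median of 16836530, with 15.4 to 28.0% of counts on mitochondrial ribosomal RNA. The epithelial markers Epcam, Cdh1, Vil1, Krt8, Krt18 and Krt19 summed to 12000 to 17620 CPM, counts scaled to library sizes adjusted by TMM, in WENR-minus and to 3915 to 5316 CPM in WENR-plus, so the media did not overlap. Mesenchymal markers summed to at most 18.7 CPM, immune markers to 10.4, neural and glial markers to 2.92 and endothelial markers to 2.00, with Dcn and Sox10 at 0 in every library. Of the 8 mesenchymal markers 3 were tested, and 2 of these were lower in proximal Cdx2-sgRNA than in proximal Scramble-sgRNA organoids in either medium, where all 8 summed to 0.582 to 1.19 against 3.08 to 18.7 CPM. Of 2 immune markers tested, 1 was higher and 1 lower in the same comparison in WENR-minus and 1 lower in WENR-plus, and of 3 neural and glial markers 2 were lower in WENR-plus. Summed over the proximal lines, immune markers held 4.87 to 10.4 CPM with Cdx2-sgRNA against 2.55 to 7.07 with Scramble-sgRNA, and neural and glial markers 0.812 to 1.69 against 0.558 to 2.44. Their part in the results on Cdx2 was not tested. Cdx2 RNA was read in every library. It was 203 and 151 CPM in proximal Scramble-sgRNA against 73.9 and 71.0 CPM in proximal Cdx2-sgRNA organoids in WENR-minus, and 142 and 127 against 29.9 and 33.3 CPM in WENR-plus. In distal organoids the guides overlapped in WENR-minus (112 and 110 against 126 and 86.1 CPM) and stood close in WENR-plus (76.8 and 67.9 against 62.3 and 50.2 CPM). A frameshifted transcript is counted like any other, so these reads do not check the distal knockout. TMM takes most genes as unchanged, and its factors were 0.764 to 0.804 in distal Scramble-sgRNA and 0.656 to 0.700 in distal Cdx2-sgRNA organoids in WENR-minus against 1.08 to 1.13 in both in WENR-plus. Proximal Scramble-sgRNA organoids had 0.964 to 1.02 in WENR-minus and 1.21 to 1.31 in WENR-plus, and proximal Cdx2-sgRNA organoids 1.08 to 1.17 in both media. Size, and for small differences direction, therefore depend on the scaling. Scaling by library totals alone, an alternative chosen after seeing the data, moved the median of all genes in WENR-plus against WENR-minus by 0.34, 0.51 and 0.68 (log2) in proximal Scramble-sgRNA, distal Scramble-sgRNA and distal Cdx2-sgRNA organoids and by 0.03 in proximal Cdx2-sgRNA ones. The same shift was 0.16, −0.15, −0.21 and −0.04 for the guides (proximal WENR-minus and WENR-plus, then distal), and 0.34, 0.18, 0.70 and 0.06 for the regions (Scramble-sgRNA in WENR-minus and WENR-plus, then Cdx2-sgRNA). In bulk RNA, fewer cells of a type and less RNA per cell cannot be told apart.

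Levels between the genes can be set side by side only per length, in TPM, which is scaled for transcript length. Over the 16 libraries Ezh2 had the highest median, 58.8 TPM, with a range of 15.6 to 116 TPM. Hells followed at a median of 40.6 TPM and had the highest single value, 173 TPM. These medians pool 8 groups, and the order turns between them: in the 4 distal WENR-plus libraries Hells stood at 78.9 to 173 TPM and exceeded Ezh2, at 62.3 to 81.6 TPM, in each, whereas Ezh2 was above Hells in the other 12. Of the Hells reads 27.9% fell on Hells-205, a transcript of 689 bases, and 71.2% on Hells-201, of 5868 bases. Per read the shorter one adds more TPM, so the rank of Hells depends on how reads were assigned between them. Ezh1 had a median of 29.8 TPM and Uhrf1 one of 16.8 TPM. Dnmt3a, Tet3 and Dnmt1 had almost equal medians of 13.7, 13.6 and 13.6 TPM, but very unequal ranges: 6.45 to 18.99 TPM for Dnmt3a, 7.78 to 15.4 TPM for Tet3 and 2.74 to 51.0 TPM for Dnmt1. Tet2 had a median of 10.04 TPM. Dnmt3b at 0.780 TPM and Tet1 at 0.0368 TPM stood far below the rest, with 1 to 126 and 0 to 28 reads per library. Among the genes read in every library, Tet3 spanned the narrowest range, 0.99 on the log2 scale of TPM, and Dnmt3b the widest, 7.12, at its few reads.

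**Figure D1:**
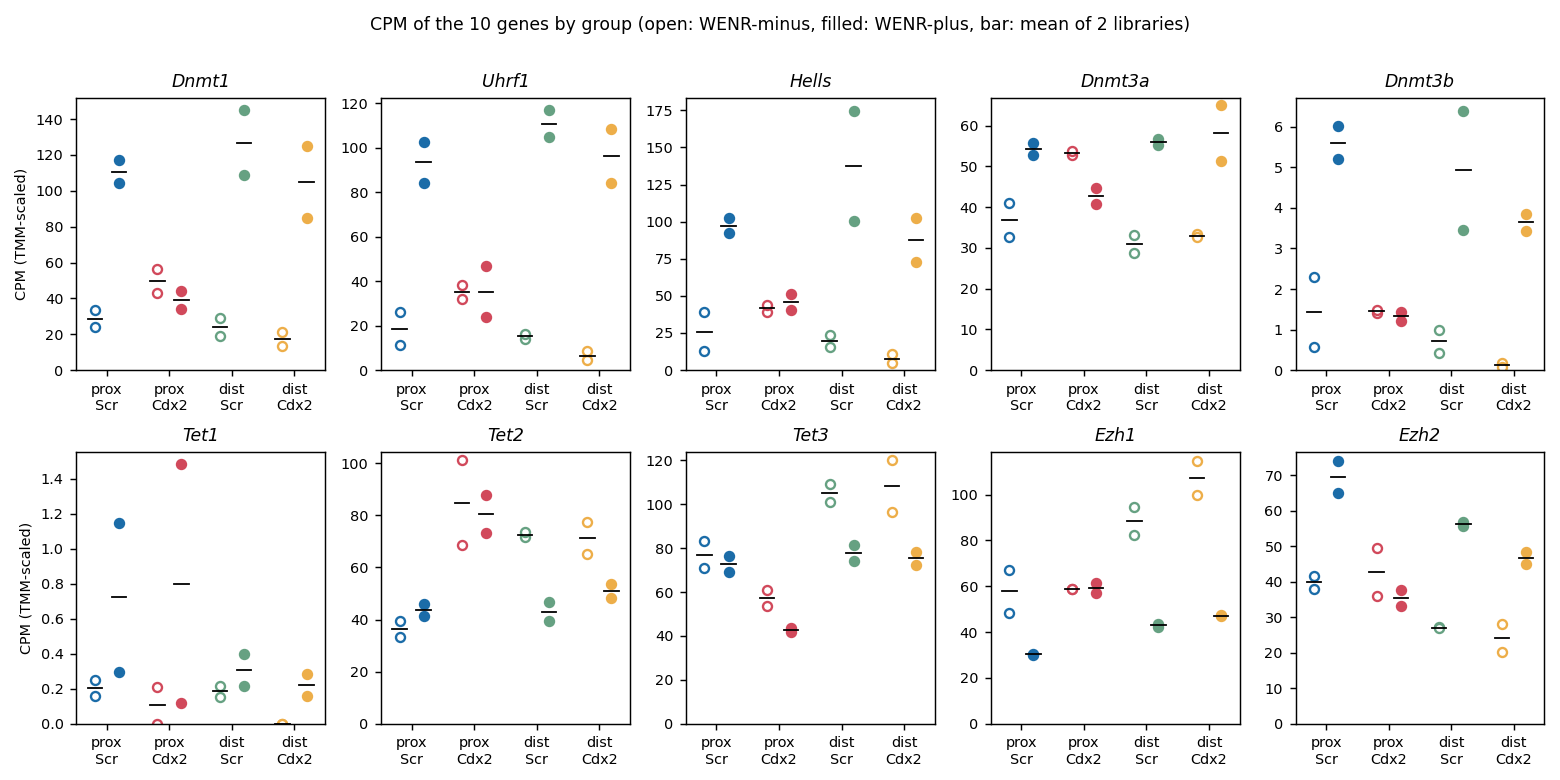
CPM of each of the 10 genes (y axis, linear from 0) in the 8 groups (x axis: proximal or distal, Scramble-sgRNA or Cdx2-sgRNA), with 1 point per library, open for WENR-minus and filled for WENR-plus, and a bar at the mean of 2 libraries. Dnmt1, Uhrf1 and Hells stand high in WENR-plus in each line but proximal Cdx2-sgRNA, where Dnmt1 lies between 34.0 and 56.5 CPM in both media.

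The sequences just before the start sites are shown for the maintenance genes Dnmt1, Uhrf1 and Hells, which each passed the test between the media in the same 3 lines, and for Ezh1 and Ezh2, which went in opposite directions there, by TMM scaling and by library totals alike. They are the 250 bases before the start in RefSeq (GRCm38.p6), read 5′ to 3′ on the strand of the gene, and for each gene the RefSeq start nearest to that of its most abundant transcript was taken. That start lies within 75 bases of the transcript for 8 genes, but 7310 bases away for Tet1 and 17370 for Ezh2. Dnmt1 is at chr9:20952980-20953229 (minus strand), Uhrf1 at chr17:56303087-56303336 (plus strand), Hells at chr19:38930740-38930989 (plus strand), Ezh1 at chr11:101226464-101226713 (minus strand) and Ezh2 at chr6:47595031-47595280 (minus strand). Capitals mark matches to CCAAT, the box read by NF-Y, and to the E2F letters TTTCCCGC, TTTGCCGC, TTTGGCGC or TTTCGCGC, searched on both strands, so that CCAAT on the other strand reads as its reverse complement.
Dnmt1: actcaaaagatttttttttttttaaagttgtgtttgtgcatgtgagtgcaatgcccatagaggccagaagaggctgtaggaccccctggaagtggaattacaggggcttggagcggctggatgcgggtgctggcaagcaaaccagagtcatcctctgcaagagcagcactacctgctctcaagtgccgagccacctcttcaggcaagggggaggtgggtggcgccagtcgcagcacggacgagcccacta
Uhrf1: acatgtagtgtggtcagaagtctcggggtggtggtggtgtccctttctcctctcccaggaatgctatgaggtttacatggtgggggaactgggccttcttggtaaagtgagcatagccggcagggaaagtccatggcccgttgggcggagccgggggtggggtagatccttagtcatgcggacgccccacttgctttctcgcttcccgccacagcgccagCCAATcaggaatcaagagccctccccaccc
Hells: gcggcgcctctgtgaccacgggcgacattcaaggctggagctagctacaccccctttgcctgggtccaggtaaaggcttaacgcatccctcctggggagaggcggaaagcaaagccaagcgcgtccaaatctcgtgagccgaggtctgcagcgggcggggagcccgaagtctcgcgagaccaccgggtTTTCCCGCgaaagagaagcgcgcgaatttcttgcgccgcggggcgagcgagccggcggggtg
Ezh1: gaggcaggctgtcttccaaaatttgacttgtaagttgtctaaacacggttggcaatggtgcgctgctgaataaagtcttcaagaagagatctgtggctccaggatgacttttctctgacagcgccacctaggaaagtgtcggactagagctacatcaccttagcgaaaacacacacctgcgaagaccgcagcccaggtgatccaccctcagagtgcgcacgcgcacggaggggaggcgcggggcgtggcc
Ezh2: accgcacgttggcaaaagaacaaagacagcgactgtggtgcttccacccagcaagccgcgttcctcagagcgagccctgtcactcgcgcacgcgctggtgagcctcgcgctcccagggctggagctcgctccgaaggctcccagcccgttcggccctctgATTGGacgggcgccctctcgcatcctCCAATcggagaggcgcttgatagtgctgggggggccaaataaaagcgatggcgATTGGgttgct

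Among the 10 genes, the promoter of Hells alone held an E2F match, TTTCCCGC at −62 to −55 from the start, and 1.86% of all 32851 RefSeq promoters of this length hold one. CCAAT was found in the promoters of Uhrf1 (1 match), Tet3 (1) and Ezh2 (3), against 33.9% of all promoters with at least 1. The letters TTTGAA, a core of the cell cycle element CHR, were found once, before Dnmt3b, and are held by 15.99% of promoters. TTTATNG, a core of the Cdx binding motif, was in none of the 10 and is held by 9.81% of promoters. The number of CpG dinucleotides, the sites that the Dnmt enzymes methylate, was 7 before Dnmt1, 10 before Uhrf1 and 14 before Ezh1, and 23 before Ezh2, 28 before Hells, 38 before Dnmt3a and 51 before Tet2, where the median of all promoters is 6. Such matches describe letters in these windows, and binding or methylation was not measured here.

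**Figure D2:**
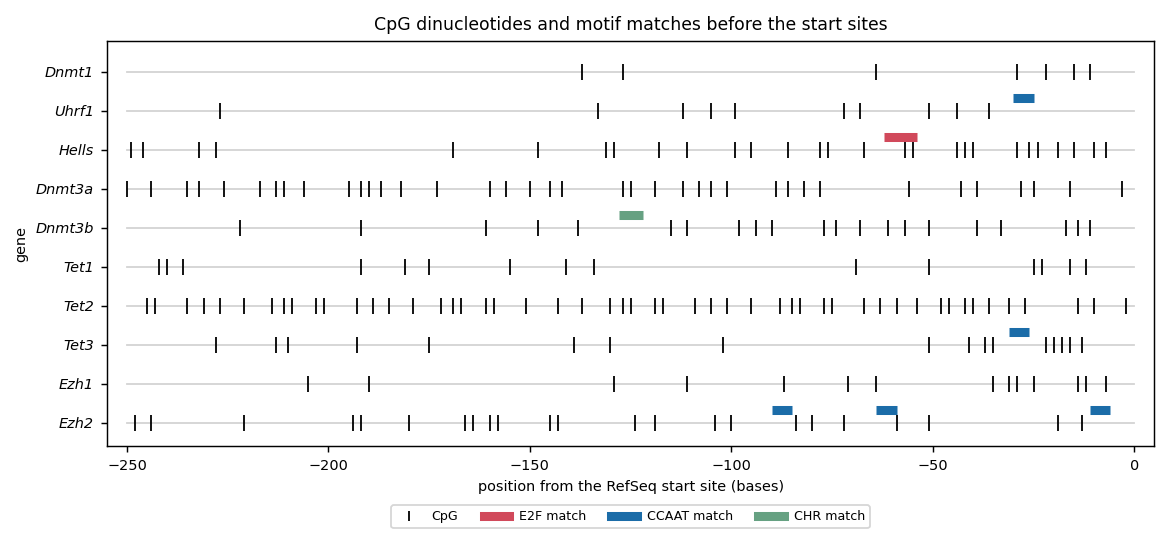
Positions of CpG dinucleotides (black ticks) and of motif matches (coloured bars) in the 250 bases before the RefSeq start site of each gene (x axis: bases from the start, y axis: gene). Tet2 has 51 CpG and Dnmt1 7, the Hells window holds the E2F match, and that of Ezh2 holds 3 CCAAT matches.

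The effect of niche factors was read first. Organoids in WENR-plus were compared with those in WENR-minus in each line, and the 4 lines did not respond alike. In proximal Scramble-sgRNA organoids 7 of the 10 genes passed the test (6 higher and 1 lower in WENR-plus, where 29.4% of all genes passed, 12.9% higher and 16.4% lower). Distal Scramble-sgRNA organoids had 9 (6 higher, 3 lower, against 40.4% of all genes, 20.2% higher and 20.3% lower), and distal Cdx2-sgRNA organoids 8 (6 higher, 2 lower, against 47.0%, 24.0% higher and 23.0% lower). Proximal Cdx2-sgRNA organoids had none of the 10, where 13.5% of all genes passed. At an unadjusted p under 0.05 there was 1 gene (28.7% of all genes), and DESeq2 called 1, in both cases Tet3. With a block for each culture, that is both media of 1 line and replicate number, chosen after seeing the data, Tet3 passed here as well (−0.42, adjusted p = 0.0438), while 4038 instead of 2063 of all genes did. With only the libraries of this line in the fit, 0 of the 13518 genes then tested passed, so the 13.5% rests on spread shared with the other groups. The median log2 difference of the 10 genes was 1.31, 0.95 and 1.78 in the first 3 lines and −0.10 in proximal Cdx2-sgRNA organoids. These medians count Tet1, at 0 to 28 reads a library and with no read in distal Cdx2-sgRNA organoids in WENR-minus. Their size and their order between the lines are therefore not read. Over all genes tested the medians were 0.06, 0.11, 0.10 and 0.03 in the same order. By library totals 8 (7 higher, 1 lower), 7 (6 and 1), 7 (6 and 1) and 0 of the 10 genes passed in that order. All genes then split into 23.2% higher and 8.94% lower in proximal Scramble-sgRNA, 35.9% and 10.3% in distal Scramble-sgRNA and 42.6% and 10.8% in distal Cdx2-sgRNA organoids. In proximal Cdx2-sgRNA organoids 12.3% of all genes passed by library totals.

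Dnmt1, the maintenance methyltransferase (chromosome 9, 20907209 to 20959888 of GRCm38), stood at 23.9 and 33.5 CPM in WENR-minus and at 104 and 117 CPM in WENR-plus in proximal Scramble-sgRNA organoids. In the distal Scramble-sgRNA line it was 18.8 and 29.3 CPM in WENR-minus and 109 and 145 CPM in WENR-plus, and in the distal Cdx2-sgRNA line 13.3 and 21.2 CPM against 85.1 and 125 CPM. The media did not overlap in any of these 3 lines. Its log2 differences were 1.95 (adjusted p = 0.00124, SE 0.31), 2.40 (adjusted p = 0.000203, SE 0.32) and 2.61 (adjusted p = 6.8e-05, SE 0.32). By library totals the differences were larger, 2.28, 2.90 and 3.29. In proximal Cdx2-sgRNA organoids the values were 43.3 and 56.5 CPM in WENR-minus and 44.0 and 34.0 CPM in WENR-plus, so the media overlapped, at levels between those of the other lines in either medium.

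Uhrf1, which reads half-methylated DNA (chromosome 17, 56303321 to 56323486), was 11.2 and 26.1 CPM in WENR-minus against 84.1 and 103 CPM in WENR-plus in proximal Scramble-sgRNA organoids. The distal Scramble-sgRNA values were 13.9 and 16.4 against 105 and 117 CPM, and the distal Cdx2-sgRNA values 4.32 and 8.53 against 84.3 and 109 CPM. Uhrf1 thus had its lowest level in distal Cdx2-sgRNA organoids without niche factors. The log2 differences were 2.32 (adjusted p = 0.0023, SE 0.42), 2.87 (adjusted p = 0.000412, SE 0.43) and 3.91 (adjusted p = 5.16e-05, SE 0.46). By library totals they were 2.64, 3.38 and 4.59, and without proximal Scramble-sgRNA WENR-minus replicate 2 the first was 2.99. With 38.4 and 31.997 CPM in WENR-minus and 46.6 and 23.7 CPM in WENR-plus, the media overlapped in proximal Cdx2-sgRNA organoids.

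Hells, the remodeller (chromosome 19, 38930915 to 38971051), followed the same order. Its values were 12.8 and 38.9 against 92.5 and 102 CPM in proximal Scramble-sgRNA, 15.6 and 23.4 against 100.3 and 175 CPM in distal Scramble-sgRNA and 4.65 and 10.5 against 72.7 and 103 CPM in distal Cdx2-sgRNA organoids. Log2 differences were 1.91 (adjusted p = 0.0134, SE 0.49), 2.82 (adjusted p = 0.00117, SE 0.51) and 3.53 (adjusted p = 0.000255, SE 0.53). By library totals they were 2.23, 3.33 and 4.22. The value in distal Cdx2-sgRNA organoids was 4.18 without WENR-minus replicate 2. Proximal Cdx2-sgRNA organoids held 39.3 and 44.0 CPM in WENR-minus and 51.4 and 40.5 CPM in WENR-plus, which overlap.

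The de novo enzyme Dnmt3a (chromosome 12, 3806007 to 3914443) moved less. It was 40.96 and 32.8 CPM in WENR-minus and 55.7 and 52.9 CPM in WENR-plus in proximal Scramble-sgRNA organoids, and 28.9 and 33.3 against 55.3 and 56.6 CPM in the distal ones. Distal Cdx2-sgRNA organoids held 33.3 and 32.7 against 51.4 and 65.0 CPM. Differences on the log2 scale were 0.56 (adjusted p = 0.0169, SE 0.15), 0.85 (adjusted p = 0.00111, SE 0.15) and 0.82 (adjusted p = 0.00098, SE 0.15). By library totals they were 0.91, 1.36 and 1.49. In proximal Cdx2-sgRNA organoids its values in WENR-minus, 52.8 and 53.8 CPM, lay above those in WENR-plus, 44.7 and 40.7 CPM, without passing the test.

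Dnmt3b, the other de novo enzyme (chromosome 2, 153649450 to 153687730), was read 9 and 44 times in WENR-minus and 126 and 88 times in WENR-plus in proximal Scramble-sgRNA organoids. In distal Scramble-sgRNA organoids it had 13 and 6 against 69 and 119 reads. Its log2 differences were 1.96 (adjusted p = 0.0251, SE 0.57) and 2.78 (adjusted p = 0.0041, SE 0.62). These sizes rest on single libraries. In proximal Scramble-sgRNA organoids the value was 1.27 without WENR-minus replicate 1 and 3.25 without WENR-minus replicate 2, and in distal Scramble-sgRNA organoids 3.49 without WENR-minus replicate 1 and 2.18 without WENR-plus replicate 2. Distal Cdx2-sgRNA organoids held 2 and 1 reads in WENR-minus against 60 and 73 with niche factors. At so few reads only a ratio of the summed counts is given, 133 against 3 reads, each divided by the summed TMM-scaled library sizes of its group: 29.0, with an exact 95% counting interval of 9.71 to 142, which covers counting error only. Proximal Cdx2-sgRNA organoids had 19 and 28 reads in WENR-minus against 21 and 27 with niche factors.

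Ezh2 and Ezh1, the catalytic subunits of PRC2, moved in opposite directions. Ezh2 (chromosome 6, 47530139 to 47595341) was 38.0 and 41.7 CPM in WENR-minus against 65.1 and 74.0 CPM in WENR-plus in proximal Scramble-sgRNA organoids. Distal Scramble-sgRNA organoids held 27.2 and 26.9 against 55.9 and 56.8 CPM, and distal Cdx2-sgRNA organoids 20.1 and 28.1 against 44.9 and 48.5 CPM. Ezh2 was higher with niche factors in all 3 lines, by 0.80 (adjusted p = 0.00764, SE 0.18), 1.06 (adjusted p = 0.00101, SE 0.19) and 0.95 (adjusted p = 0.00139, SE 0.19) on the log2 scale. Ezh1 (chromosome 11, 101191115 to 101226463) was lower with niche factors. Its values in WENR-minus and WENR-plus were 67.3 and 48.5 against 30.6 and 30.1 CPM in proximal Scramble-sgRNA, 82.5 and 94.7 against 43.5 and 42.2 CPM in distal Scramble-sgRNA and 115 and 99.7 against 47.5 and 46.9 CPM in distal Cdx2-sgRNA organoids. The log2 differences of Ezh1 were −0.93 (adjusted p = 0.0015, SE 0.15), −1.05 (adjusted p = 0.000371, SE 0.15) and −1.18 (adjusted p = 9.91e-05, SE 0.15). By library totals Ezh1 differed by less, −0.58, −0.54 and −0.51 (adjusted p of 0.0204, 0.018 and 0.0208), and Ezh2 by more, 1.14, 1.57 and 1.64, each with the direction kept. On the log2 scale of TPM the mean differences of Ezh1 were −0.66, −0.39 and −0.43. In proximal Cdx2-sgRNA organoids Ezh1 was 58.9 and 58.9 CPM in WENR-minus and 57.1 and 61.4 CPM in WENR-plus, and Ezh2 35.9 and 49.6 against 37.6 and 33.3 CPM, with overlap for both genes.

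Of the Tet genes, which oxidise methylcytosine, Tet2 and Tet3 passed the test between the media in distal organoids after TMM scaling, and neither call was kept by library totals. Tet3 (chromosome 6, 83362373 to 83459084) stood at 101 and 109 CPM in WENR-minus and 74.2 and 81.4 CPM in WENR-plus in distal Scramble-sgRNA organoids and at 96.5 and 120.1 against 72.5 and 78.4 CPM in distal Cdx2-sgRNA organoids. Its log2 differences were −0.43 (adjusted p = 0.0319, SE 0.14) and −0.52 (adjusted p = 0.0112, SE 0.14), but by library totals they turned to 0.07 (adjusted p = 0.686) and 0.16 (adjusted p = 0.351). In TPM the media overlapped for Tet3 in both lines, with 13.3 and 15.1 against 14.2 and 15.4 TPM, and 12.3 and 14.3 against 14.01 and 14.5 TPM. Tet2 (chromosome 3, 133463679 to 133545139) was 71.6 and 73.6 CPM in WENR-minus and 46.6 and 39.3 CPM in WENR-plus in distal Scramble-sgRNA organoids, a log2 difference of −0.76 (adjusted p = 0.0082, SE 0.19), against −0.25 (adjusted p = 0.303) by library totals. In the distal Cdx2-sgRNA line its values were 65.1 and 77.3 CPM in WENR-minus and 48.3 and 53.7 CPM in WENR-plus, which do not overlap but did not pass edgeR's test, while DESeq2 called Tet2 there. The difference was −0.48 by TMM but 0.20 by library totals (adjusted p = 0.41), and in TPM Tet2 was higher in WENR-plus, at 10.03 and 10.8 against 8.46 and 9.96 TPM. In proximal Scramble-sgRNA organoids Tet2 passed by library totals (0.61, adjusted p = 0.034) but not after TMM scaling. Tet1 (chromosome 10, 62804570 to 62908996) had 0 to 28 reads in a library and passed in no comparison. It had no read in either distal Cdx2-sgRNA library in WENR-minus, and its highest values, 24 and 28 reads, came from 1 replicate each of proximal Scramble-sgRNA and proximal Cdx2-sgRNA organoids in WENR-plus, beside 5 and 2 reads in the other replicates.

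Several of these calls depend on single libraries or on the processing. In proximal Scramble-sgRNA organoids Hells and Ezh2 were no longer past the test without WENR-minus replicate 1 or without WENR-plus replicate 2 (log2 differences of 1.302 to 1.81 and 0.67 to 0.72, adjusted p of 0.0591 to 0.0936 and 0.0735 to 0.0737). Without WENR-minus replicate 2 the difference of Hells was 2.86. Dnmt3a there lost its call without either WENR-plus library or without WENR-minus replicate 2 (0.34 to 0.56, adjusted p of 0.076 to 0.173), and Dnmt3b without either WENR-plus library or without WENR-minus replicate 1 (1.27 to 2.04, adjusted p of 0.0744 to 0.152). Dnmt3a there also lost the call without a filter on low counts (0.52, adjusted p = 0.0922) and with length-scaled counts (0.50, adjusted p = 0.0968), and Dnmt3b with only the libraries compared (1.97, adjusted p = 0.0748). With length-scaled counts the calls of Ezh2 in proximal Scramble-sgRNA (0.80, adjusted p = 0.0679) and distal Cdx2-sgRNA organoids (0.71, adjusted p = 0.0703) were also lost. Tet2 in distal Scramble-sgRNA organoids lost it without WENR-plus replicate 2 (−0.73, adjusted p = 0.0563). Tet3 lost it without any library but WENR-plus replicate 2 in distal Scramble-sgRNA organoids (adjusted p of 0.0716 to 0.151) and in 4 alternatives with all libraries or all those compared (adjusted p of 0.051 to 0.112), and without WENR-plus replicate 1 or WENR-minus replicate 2 in distal Cdx2-sgRNA organoids (adjusted p of 0.0582 to 0.0888).

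**Figure D3:**
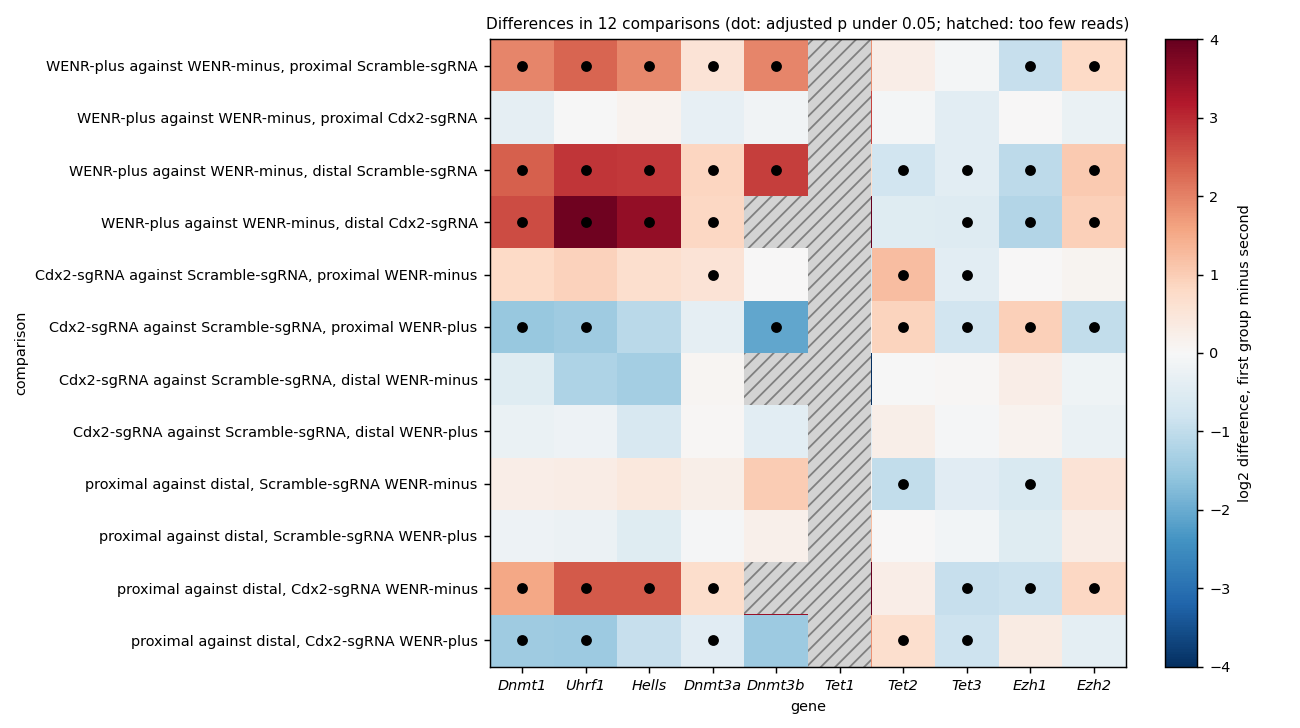
Log2 differences (colour, first group minus second) of the 10 genes (x axis) in 12 comparisons (y axis), with a dot where edgeR's adjusted p is under 0.05 and hatching where a group had 3 reads or fewer in each library, and for Tet1 throughout. Values are after TMM scaling, and Tet3 between the media in distal organoids turns direction by library totals. The row of WENR-plus against WENR-minus in proximal Cdx2-sgRNA organoids has no dot, and the rows of the same comparison in the other lines have 7, 9 and 7 dots beside the hatched squares.

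Whether the effect of WENR-plus differed between the guides was tested as the difference of effects, Cdx2-sgRNA minus Scramble-sgRNA. In proximal organoids 5 of the 10 genes passed, where 4.38% of all genes did. On the log2 scale the difference was −2.30 (adjusted p = 0.0213, SE 0.43) for Dnmt1, −2.32 (adjusted p = 0.0464, SE 0.57) for Uhrf1, −0.88 (adjusted p = 0.0421, SE 0.21) for Dnmt3a and −1.08 (adjusted p = 0.0421, SE 0.26) for Ezh2. Each was higher with niche factors in Scramble-sgRNA organoids. In Cdx2-sgRNA organoids their effects were −0.36, −0.0011, −0.32 and −0.27 in that order, and none passed the test. For Ezh1, which was lower with niche factors in the other lines, the difference of effects was 0.94 (adjusted p = 0.0396, SE 0.22). These adjusted p values lie close to the threshold. Leaving out single libraries of the 8 ended the call in 5 cases for Dnmt1 (adjusted p of 0.0668 to 0.0945), 6 for Uhrf1 (0.0728 to 0.137), 8 for Dnmt3a (0.0654 to 0.14) and 7 each for Ezh1 (0.0661 to 0.135) and Ezh2 (0.0639 to 0.152), with the direction kept throughout. The log2 differences in those fits were −2.36 to −2.06 for Dnmt1, −2.44 to −1.84 for Uhrf1, −1.05 to −0.68 for Dnmt3a, 0.69 to 0.99 for Ezh1 and −1.17 to −0.79 for Ezh2. Without Scramble-sgRNA WENR-minus replicate 2 the value of Uhrf1 was −3.02. By library totals Ezh1 lost its call (0.62, adjusted p = 0.122), and the other 4 kept theirs. With only the libraries compared, Dnmt1 alone kept its call, and with length-scaled counts 1 of the 5 did. With a block for each culture, chosen after seeing the data, Hells passed as well (−1.95, adjusted p = 0.0133), while 2532 instead of 669 of all genes did. In distal organoids the same difference was called by edgeR for 0 of the 10 genes, with 0 at an unadjusted p under 0.05 (9.53% of all genes) and 0 by DESeq2, and for 0% of all genes.

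The loss of Cdx2 was read next, as Cdx2-sgRNA against Scramble-sgRNA organoids within each region and medium. These comparisons use the libraries already described and are not independent of those above. With niche factors, 7 of the 10 genes differed in proximal organoids (2 higher and 5 lower in Cdx2-sgRNA, against 24.8% of all genes, 9.94% higher and 14.8% lower). The log2 difference was −1.50 (adjusted p = 0.00494, SE 0.31) for Dnmt1, −1.41 (adjusted p = 0.0269, SE 0.41) for Uhrf1, −2.08 (adjusted p = 0.0234, SE 0.58) for Dnmt3b and −0.97 (adjusted p = 0.0033, SE 0.18) for Ezh2. By library totals 8 passed, 2 higher and 6 lower, with Dnmt3a added (−0.50, adjusted p = 0.0313), and all genes split into 7.72% higher and 20.5% lower. Of the 41 S phase genes described further on, 0 were higher and 21 lower in the same comparison (median −0.95, and 0 and 30 by library totals), and of 4 differentiation markers 1 was higher and 3 lower (median −3.18), and their part in the result was not tested. Ezh1 was higher by 0.96 (adjusted p = 0.00132, SE 0.15). Mean levels in Cdx2-sgRNA against Scramble-sgRNA organoids were 39.0 against 111 CPM for Dnmt1 and 59.3 against 30.4 CPM for Ezh1, and the guides did not overlap for either gene. Uhrf1 lost its call without proximal Scramble-sgRNA replicate 1 or 2 or without Cdx2-sgRNA replicate 2 (−1.51 to −1.001, adjusted p of 0.0667 to 0.174), and Dnmt3b without any of the 4 libraries (−2.20 to −1.93, adjusted p of 0.0705 to 0.102). Uhrf1 also lost it with only the libraries compared (−1.35, adjusted p = 0.0582) and Dnmt3b with length-scaled counts (−1.54, adjusted p = 0.103).

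Tet2 and Tet3 parted after Cdx2 loss in proximal organoids, in both media. Tet2 was 39.4 and 33.4 CPM in Scramble-sgRNA and 68.7 and 101 CPM in Cdx2-sgRNA organoids in WENR-minus, and 41.3 and 45.9 against 73.3 and 87.9 CPM in WENR-plus. It was higher in Cdx2-sgRNA organoids by 1.22 (adjusted p = 0.000741, SE 0.19) and 0.89 (adjusted p = 0.00677, SE 0.19) on the log2 scale, with no overlap between the guides. Tet3 went from 83.0 and 70.8 to 53.7 and 61.1 CPM in WENR-minus and from 69.1 and 76.3 to 43.8 and 41.9 CPM in WENR-plus. The differences for Tet3 were −0.42 (adjusted p = 0.0456, SE 0.14) and −0.76 (adjusted p = 0.00346, SE 0.15). The call of Tet3 in WENR-minus was lost in 10 of 13 alternatives, among them library totals (−0.26, adjusted p = 0.178) and those without Scramble-sgRNA replicate 1 or without either Cdx2-sgRNA replicate (−0.53 to −0.27, adjusted p of 0.0754 to 0.317). That of Tet2 in WENR-plus was lost without Scramble-sgRNA replicate 1 or without Cdx2-sgRNA replicate 2 (0.75 to 0.86, adjusted p of 0.0516 to 0.0596).

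Without niche factors, 3 of the 10 genes differed between the guides in proximal organoids, where 30.9% of all genes did. Of the 41 S phase genes 15 were higher and 2 lower here (median 0.82), and of the 4 differentiation markers 0 were higher and 3 lower (median −7.52). Beside Tet2 and Tet3, Dnmt3a was higher in Cdx2-sgRNA organoids, by 0.53 (adjusted p = 0.0198, SE 0.15). By library totals 3 passed as well (31.2% of all genes), with Dnmt1 (0.95, adjusted p = 0.0354) in place of Tet3. The call of Dnmt3a was lost in 5 of 13 alternatives: without replicate 2 of either guide (0.37 to 0.51, adjusted p of 0.0851 to 0.146), without a filter on low counts (0.56, adjusted p = 0.0587), with length-scaled counts (0.42, adjusted p = 0.144) and with only the libraries compared (0.58, adjusted p = 0.108). Distal organoids gave 0 calls in WENR-minus, where 9.76% of all genes passed. There were 3 at an unadjusted p under 0.05 (26.1% of all genes) and 2 by DESeq2 (Uhrf1 and Hells). By library totals there was 1 (Uhrf1, −1.46, adjusted p = 0.0455), against 12.5% of all genes. In WENR-plus distal organoids gave 0 calls against 0.262% of all genes, with 0 at an unadjusted p under 0.05 (6.36% of all genes) and 0 by DESeq2. The proximal effect minus the distal effect in WENR-minus passed for 2 genes (17.2% of all genes), Tet2 at 1.25 (adjusted p = 0.00976, SE 0.27) and Uhrf1 at 2.15 (adjusted p = 0.0312, SE 0.60). The call of Tet2 held without each single library, whereas that of Uhrf1 was lost in 6 of 8 such fits (1.70 to 2.28, adjusted p of 0.0516 to 0.11) and with only the libraries compared (2.20, adjusted p = 0.0579). Without proximal Scramble-sgRNA replicate 2 Uhrf1 was at 2.88. By library totals 5 genes passed (20.5% of all genes), with Dnmt1 (1.66, adjusted p = 0.0227), Hells (2.41, adjusted p = 0.0338) and Dnmt3a (0.82, adjusted p = 0.0243) added to Tet2 and Uhrf1. In WENR-plus, Ezh1 alone passed, at 0.82 (adjusted p = 0.0495, SE 0.22, against 5.70% of all genes), and it did not pass without any one of the 8 libraries (0.78 to 0.87, adjusted p of 0.0716 to 0.157) or by library totals (0.71, adjusted p = 0.0918), where Tet3 passed instead (−0.83, adjusted p = 0.0279).

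Proximal and distal organoids were then compared within each guide and medium. With Scramble-sgRNA in WENR-plus, 0 of the 10 genes passed edgeR's test (2.12% of all genes), with 1 at an unadjusted p under 0.05 (14.2%) and 0 by DESeq2. In WENR-minus 2 passed, against 9.95% of all genes: Tet2 and Ezh1 were lower in proximal organoids, with log2 differences of −0.9965 (adjusted p = 0.00949, SE 0.19) and −0.61 (adjusted p = 0.0284, SE 0.15). Without either region's replicate 2, Tet2 lost the call (−0.97 to −0.88, adjusted p of 0.0568 to 0.0984), and Ezh1 also without distal replicate 1 (−0.71 to −0.40, adjusted p of 0.0625 to 0.211) and with only the libraries compared (−0.61, adjusted p = 0.124). By library totals Tet2 kept its call (−0.66, adjusted p = 0.0366) and Ezh1 did not (−0.28, adjusted p = 0.231), while Dnmt3a (0.58, adjusted p = 0.0268) and Ezh2 (0.90, adjusted p = 0.00847) passed. The difference of the region effects between the media was called by edgeR for 0 of the 10 genes (0.0719% of all genes), with 1 at an unadjusted p under 0.05 (9.83%) and 1 by DESeq2 (Tet2).

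With Cdx2-sgRNA the regions differed in both media, and in WENR-minus 8 of the 10 genes passed, where 49.0% of all genes did. Proximal organoids held more of the maintenance genes: Dnmt1 by 1.54 (adjusted p = 0.002, SE 0.31), Uhrf1 by 2.45 (adjusted p = 0.000933, SE 0.44) and Hells by 2.45 (adjusted p = 0.00246, SE 0.52) on the log2 scale. Dnmt3a was higher by 0.69 (adjusted p = 0.00306, SE 0.15) and Ezh2 by 0.83 (adjusted p = 0.00359, SE 0.19), while Ezh1 (−0.86, adjusted p = 0.00086, SE 0.15) and Tet3 (−0.91, adjusted p = 0.000416, SE 0.15) were lower. The calls of Ezh1 and Tet3 rest on TMM scaling, since by library totals they were lost (−0.16, adjusted p = 0.409 and −0.20, adjusted p = 0.224). In TPM Ezh1 stood at 34.7 and 31.5 in proximal against 42.5 and 31.9 in distal organoids, which overlap. Tet3 stood at 10.9 and 11.4 against 12.3 and 14.3 TPM, without overlap. The higher genes differed by more by library totals, Dnmt1 by 2.26, Uhrf1 by 3.17, Hells by 3.17, Dnmt3a by 1.40 and Ezh2 by 1.54, and Tet2 passed as well (0.97, adjusted p = 0.00128). Without distal replicate 2 Hells was higher by 3.13. In the same comparison 32 of the 41 S phase genes were higher and 3 lower (median 1.81), 46 of 54 G2M genes were higher and 0 lower (median 2.25), and 2 of 4 differentiation markers and 4 of 6 epithelial markers were lower (medians −4.81 and −0.82). By library totals 38 S phase and 53 G2M genes were higher, and of the epithelial markers 2 were higher and 2 lower (median −0.12). Their part in the result was not tested. Dnmt3b, with 47 reads in both proximal libraries together and 3 in both distal ones, had a ratio of 11.5 after the same scaling for library size (exact 95% counting interval 3.70 to 57.8). Each of these 8 calls held with TMM scaling without any single library of the 4, but that of Ezh2 was lost with only the libraries compared in the fit (0.83, adjusted p = 0.0616). In WENR-plus 5 genes passed (29.3% of all genes) and Dnmt1 and Uhrf1 lay the other way, as did the S phase list with 0 higher and 15 lower (median −0.76, and 0 and 11 by library totals). Lower in proximal organoids were Dnmt1 (−1.43, adjusted p = 0.00569, SE 0.31), Uhrf1 (−1.46, adjusted p = 0.0207, SE 0.41), Tet3 (−0.82, adjusted p = 0.00212, SE 0.15) and Dnmt3a (−0.45, adjusted p = 0.0435, SE 0.15). Tet2 was higher by 0.66 (adjusted p = 0.0236, SE 0.19). Of these, the call of Tet3 held in all alternatives run, Dnmt1 lost it without proximal replicate 2 (−1.26, adjusted p = 0.0527), Uhrf1 without replicate 2 of either region (−1.26 to −1.05, adjusted p of 0.0933 to 0.144), Tet2 without any library but proximal replicate 1 (0.52 to 0.74, adjusted p of 0.0748 to 0.149) and Dnmt3a without any of the 4. In all, Dnmt3a lost the call in 11 of 13 alternatives, other scalings and filters included (highest adjusted p 0.332), and kept it only with DESeq2 and with the replicate block. With only the libraries compared, Uhrf1 also lost it (−1.41, adjusted p = 0.058).

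Genes of the S phase list in the Seurat package moved with these genes. Uhrf1 and Hells belong to that list and were taken out, which left 41 genes. With WENR-plus, 38 of the 41 were higher and 0 lower in proximal Scramble-sgRNA, 36 higher and 0 lower in distal Scramble-sgRNA and 36 higher and 1 lower in distal Cdx2-sgRNA organoids, with median log2 differences of 1.99, 2.29 and 2.84. In proximal Cdx2-sgRNA organoids 2 were higher and 0 lower, with a median of 0.16. The mean level of the 41 genes was 4.65 to 5.16 log2 CPM in the 6 WENR-plus libraries of the other 3 lines and 2.21 to 3.70 in their 6 WENR-minus libraries. The 4 proximal Cdx2-sgRNA libraries, of either medium, lay between, at 3.89 to 4.26. Over the 16 libraries Pearson's r of log2 CPM with this mean was 0.97 for Dnmt1, 0.99 for Uhrf1, 0.98 for Hells, 0.94 for Dnmt3b, 0.90 for Ezh2, 0.85 for Dnmt3a and −0.92 for Ezh1, and it was −0.42 for Tet3, −0.39 for Tet2 and 0.49 for Tet1. By library totals r was 0.18 for both Tet2 and Tet3, the other sign, −0.79 for Ezh1 and 0.66 for Tet1, and 0.93 to 0.99 for the 6 other genes. The points share groups, cultures and library scaling, so r is a description of these libraries. Of the 4 differentiation markers (Car1, Fabp2, Krt20, Muc2), all 4 were lower with WENR-plus in proximal Scramble-sgRNA organoids, 2 in distal Scramble-sgRNA, 3 in distal Cdx2-sgRNA and 1 in proximal Cdx2-sgRNA organoids, with median log2 differences of −4.28, −3.10, −3.40 and 0.04. Of the 6 epithelial markers 6, 5, 5 and 3 were lower and 0 higher in the same order (medians −1.37, −1.58, −1.78 and −0.87). Of the 3 stem cell markers Lgr5, Ascl2 and Ephb2, 2, 3, 3 and 2 were higher and 0 lower, with medians of 3.53, 3.51, 5.86 and 4.19, so proximal Cdx2-sgRNA organoids also had calls in this list. By library totals the 3 lines had 39, 39 and 38 S phase genes higher, 3, 2 and 3 differentiation markers lower and the same counts of epithelial markers lower. What part the share of dividing, stem or differentiated cells has in the levels of the 10 genes was not tested.

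**Figure D4:**
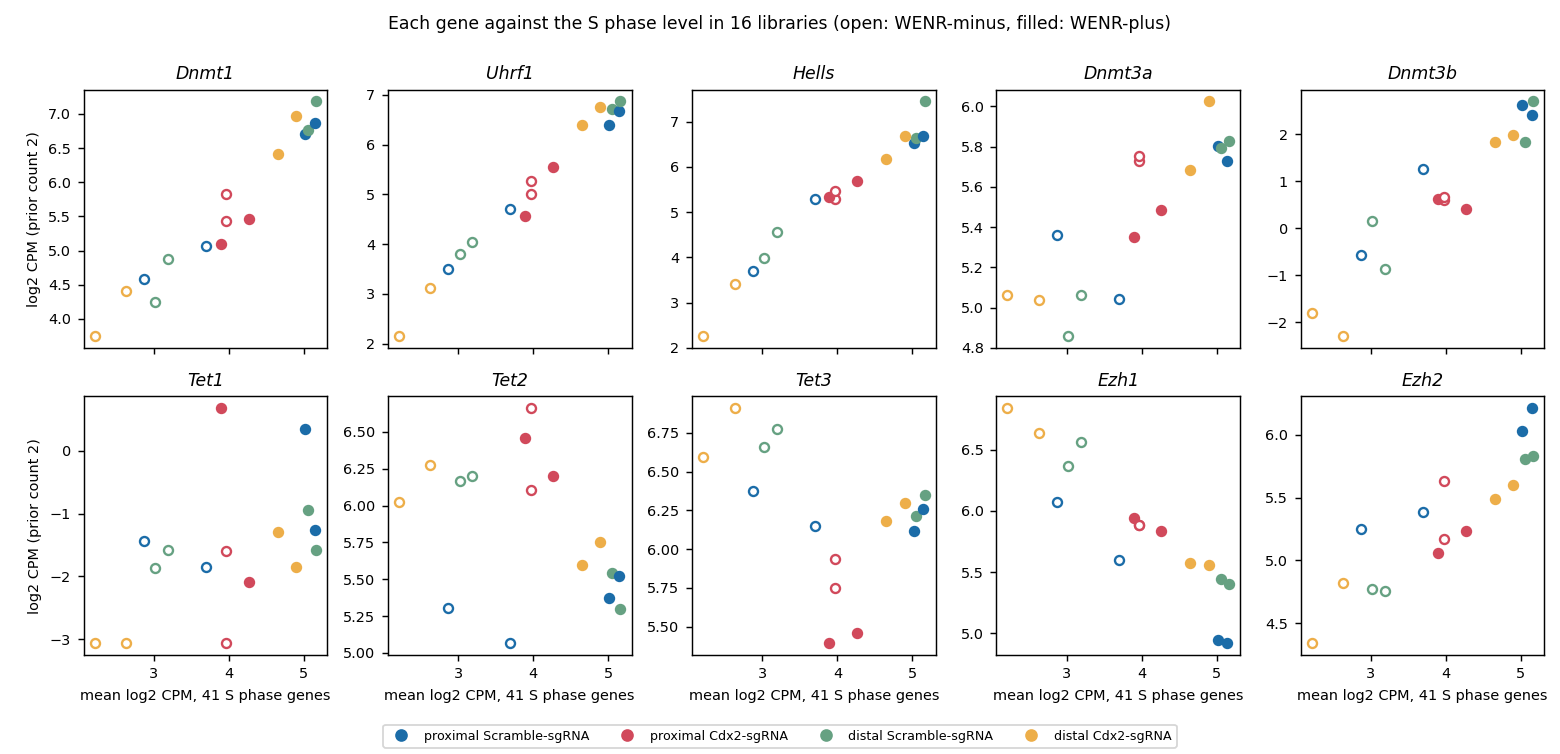
Log2 CPM of each gene (y axis) against the mean log2 CPM of 41 S phase genes (x axis) in the 16 libraries, open for WENR-minus and filled for WENR-plus, coloured by line. Dnmt1, Uhrf1 and Hells rise along the axis and Ezh1 falls, and the 4 proximal Cdx2-sgRNA libraries, at an S phase level of 3.89 to 4.26, hold the lowest Tet3 values.

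The balance between paired enzymes was read as ratios of TPM within each culture, taking both media of a line and replicate number as 1 culture. The 8 cultures come from 2 mice, so cultures of different lines share an animal, and the permutation p values below treat them as independent and may be too small. For Ezh1 to Ezh2 the ratio was 0.504 and 0.356 in WENR-minus against 0.1253 and 0.127 in WENR-plus in proximal Scramble-sgRNA organoids. Distal Scramble-sgRNA cultures went from 1.07 and 1.41 to 0.366 and 0.334, and distal Cdx2-sgRNA cultures from 2.73 and 0.942 to 0.437 and 0.418. Ezh1 thus exceeded Ezh2 per length in 3 of the 4 distal WENR-minus libraries and in none of the 12 others. The proximal Cdx2-sgRNA cultures went the other way, from 0.579 and 0.447 to 0.700 and 0.707. Of the Ezh2 reads 10.9% fell on Ezh2-205, of 866 bases, which adds more TPM per read than longer transcripts do. These ratios therefore depend on how reads were assigned to transcripts. Over the 8 cultures the mean log2 change was −1.25 ± 1.15 (SD, n = 8), lower in 6, with p = 0.0312 in an exact two-sided permutation test by sign flips and an adjusted p of 0.0469 over the 6 ratios tested.

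Dnmt1 against the sum of the de novo enzymes rose with niche factors in 7 of 8 cultures, by 1.096 ± 0.80 on the log2 scale (exact permutation p = 0.0234, adjusted p = 0.0469). In WENR-minus the ratio was 0.414 to 1.38 and in WENR-plus 1.04 to 2.66, and the culture that fell was proximal Cdx2-sgRNA replicate 2, from 1.38 to 1.05. Dnmt3a to Dnmt3b fell in 8 of 8 cultures, by 2.30 ± 1.68 (exact permutation p = 0.00781, the smallest that 8 cultures can give, adjusted p = 0.0234), and in WENR-minus it rests on 1 to 44 reads of Dnmt3b. Tet2 and Tet3 made up nearly all Tet transcripts. The Tet2 share of the summed Tet TPM was 33.9 to 43.1% in every library of the 3 other lines and 58.9 to 71.3% in the proximal Cdx2-sgRNA libraries. Its change with the medium was 2.63 ± 5.50 percentage points (exact permutation p = 0.203, adjusted p = 0.203, higher in 6 of 8 cultures), and that of the Tet3 share −3.00 ± 5.47 (exact permutation p = 0.172, adjusted p = 0.203, lower in 6 of 8). Tet1 took 0 to 1.68% of the sum and its share was higher in WENR-plus in 8 of 8 cultures (by 0.366 ± 0.391 percentage points, exact permutation p = 0.00781, adjusted p = 0.0234), at 0 to 28 reads a library. That call was lost from protein-coding transcripts only, an alternative chosen after seeing the data, where the Tet1 share differed by 0.0495 percentage points (exact permutation test, adjusted p = 0.715).

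**Figure D5:**
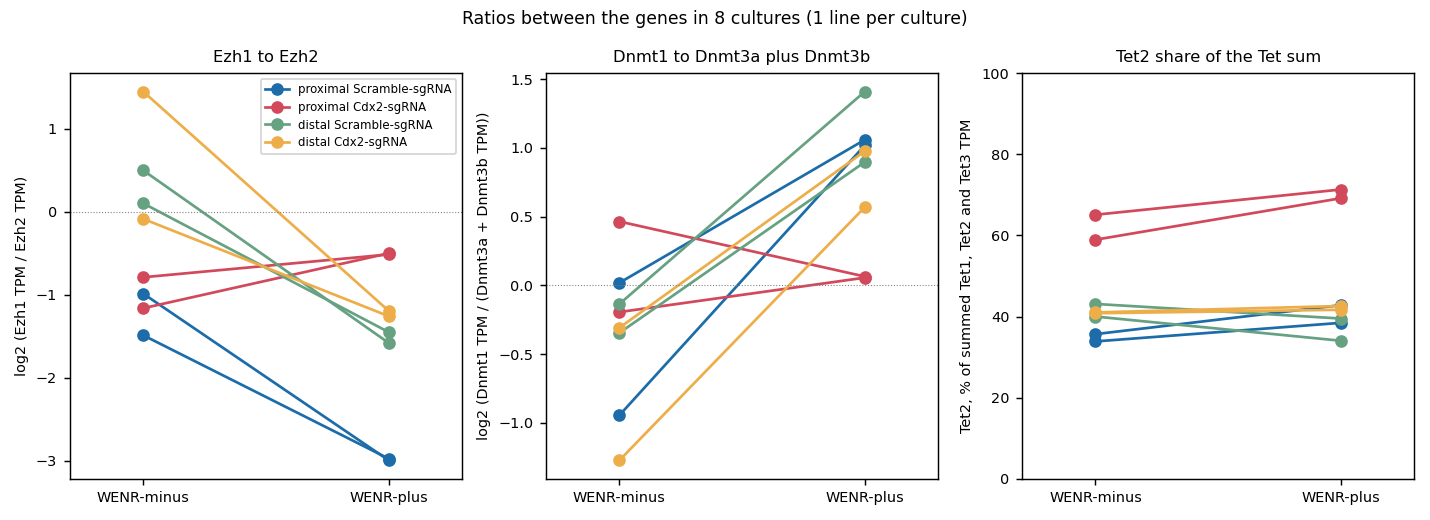
Ratios of TPM in the 8 cultures, with 1 line per culture from WENR-minus to WENR-plus, coloured by line: log2 of Ezh1 to Ezh2, log2 of Dnmt1 to Dnmt3a plus Dnmt3b, and Tet2 in percent of the summed Tet TPM (y axes). The Ezh1 ratio falls in 6 cultures and rises in both proximal Cdx2-sgRNA cultures, whose Tet2 share of 58.9 to 71.3% lies above all others.

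Most genes were read from more than 1 transcript. Dnmt1 reads fell on Dnmt1-201 (52.7% of its reads over all libraries) and Dnmt1-202 (42.5%), whose starts lie at 20952979 and 20959888 on chromosome 9. The share of Dnmt1-201 was 43.3 to 64.0% in a library, with means of 51.9% in WENR-minus and 53.5% in WENR-plus. Dnmt3a reads fell on the coding transcripts Dnmt3a-201 (50.02%) and Dnmt3a-218 (25.3%) and on Dnmt3a-215 (23.0%), which is annotated for nonsense-mediated decay. The 8 Dnmt3a transcripts that start at or beyond the internal start site at 3891744 on chromosome 12, a group chosen after the values were seen, took at most 0.290% of the reads of a library. Of 21 transcript shares tested between the media over the 8 cultures, 0 passed by the exact permutation test (the lowest p was 0.0547, for Tet3-202, and its adjusted p 0.574). Ezh1-202 and Ezh1-203, which start 13 bases apart, each ranged from 0 to over 87.0% of the Ezh1 reads, so the assignment of reads between them varied widely and only their sum was used.

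Other genes of the same pathways were counted from hand-written lists. Shares of all genes past the test, to read the counts against, were 29.4% in proximal Scramble-sgRNA, 40.4% in distal Scramble-sgRNA, 47.0% in distal Cdx2-sgRNA and 13.5% in proximal Cdx2-sgRNA organoids. Of the 10 further PRC2 genes, 3 were higher and 1 lower with WENR-plus in proximal Scramble-sgRNA, 4 and 1 in distal Scramble-sgRNA, 6 and 2 in distal Cdx2-sgRNA and 0 and 1 in proximal Cdx2-sgRNA organoids. Phf19 and Phf1, alternative accessory subunits of PRC2, went in opposite directions: Phf19 rose by 1.99 (adjusted p = 0.0141, SE 0.51), 2.78 (adjusted p = 0.00196, SE 0.55) and 3.55 (adjusted p = 0.000476, SE 0.59) in the first 3 of these lines, and Phf1 changed by −1.06 (adjusted p = 0.0211, SE 0.30), −1.54 (adjusted p = 0.0021, SE 0.30) and −2.75 (adjusted p = 4.14e-05, SE 0.31). Eed, a core subunit, rose by 2.63 (adjusted p = 0.000861, SE 0.45) in distal Scramble-sgRNA and 2.16 (adjusted p = 0.00327, SE 0.48) in distal Cdx2-sgRNA organoids. Among 20 genes of Polycomb repressive complex 1, which binds the PRC2 mark, 6 were higher and 2 lower, 8 and 3, 6 and 2, and 0 and 1 in the same order of lines. The 6 genes that remove the PRC2 mark or the ubiquitin on histone H2A gave 0 and 0, 2 and 1, 1 and 3, and 0 and 0. These counts depend on the scaling, and by library totals 32.2%, 46.3%, 53.4% and 12.3% of all genes passed in the same order of lines. By library totals they were 7 and 0, 6 and 1, 8 and 1, and 0 and 0 for the further PRC2 genes, 7 and 0, 15 and 2, 16 and 2, and 0 and 1 for those of complex 1, and 2 and 0, 4 and 0, 4 and 0, and 0 and 0 for the last list, and Phf1 in proximal Scramble-sgRNA organoids lost its call (−0.72, adjusted p = 0.0857).

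Of 13 tested partners of the methyltransferases and readers of methyl-CpG, 5 were higher and 1 lower with WENR-plus in proximal Scramble-sgRNA, 6 and 1 in distal Scramble-sgRNA, 6 and 2 in distal Cdx2-sgRNA and 2 and 2 in proximal Cdx2-sgRNA organoids, beside 29.4%, 40.4%, 47.0% and 13.5% of all genes. Cdca7, which works with Hells and is also in the S phase list, rose in all 4 lines, by 2.14 (adjusted p = 0.000349, SE 0.26), 3.13 (adjusted p = 3.14e-05, SE 0.27), 4.31 (adjusted p = 4.16e-06, SE 0.31) and 1.42 (adjusted p = 0.00695, SE 0.26). After Cdx2 loss Cdca7 fell in proximal organoids by 2.18 (adjusted p = 0.000139, SE 0.27) in WENR-minus and by 2.90 (adjusted p = 3.24e-05, SE 0.27) in WENR-plus, and in distal WENR-minus organoids by 2.15 (adjusted p = 0.00358, SE 0.31). Hells passed edgeR's test in none of these 3 comparisons, while DESeq2 called it in distal WENR-minus organoids. Of the 12 tested genes of base excision repair and of cofactors of Tet enzymes, 4 were higher and 0 lower, 6 and 1, 8 and 1, and 1 and 1 in the same order. By library totals the partners and readers gave 9 and 0, 10 and 0, 11 and 0, and 2 and 1, and this list 9 and 0, 9 and 1, 9 and 1, and 1 and 1. All genes then passed at 32.2%, 46.3%, 53.4% and 12.3%. Idh2, a source of the Tet cofactor alpha-ketoglutarate, rose by 1.39 (adjusted p = 0.000703, SE 0.19), 1.45 (adjusted p = 0.000224, SE 0.19) and 2.46 (adjusted p = 7.48e-06, SE 0.20) in the first 3 lines. Tdg, the glycosylase that removes oxidised methylcytosine, rose by 0.43 (adjusted p = 0.035, SE 0.14) in proximal Scramble-sgRNA organoids. Ogt, which binds the Tet enzymes, rose after Cdx2 loss in proximal organoids by 0.75 (adjusted p = 0.0124, SE 0.19) in WENR-minus and 1.15 (adjusted p = 0.00172, SE 0.19) in WENR-plus.

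After Cdx2 loss in proximal organoids, where 30.9% of all genes passed in WENR-minus and 24.8% in WENR-plus, the same lists held genes past the test in both directions. Of the 20 genes of Polycomb repressive complex 1, 6 were higher and 2 lower in Cdx2-sgRNA in WENR-minus and 5 higher and 4 lower in WENR-plus, with median log2 differences of 0.39 and −0.09. Cbx7, which binds the PRC2 mark, rose by 1.91 (adjusted p = 0.00172, SE 0.34) and 1.26 (adjusted p = 0.0179, SE 0.33), and Pcgf5, a variant subunit, by 1.33 (adjusted p = 0.000253, SE 0.18) and 1.32 (adjusted p = 0.000434, SE 0.18). Of the 10 further PRC2 genes 2 were higher and 1 lower in WENR-minus, and 0 higher and 3 lower in WENR-plus, with medians of −0.15 and −0.36. Jarid2, an accessory subunit, was among the lower ones in both media (−0.64, adjusted p = 0.00723, SE 0.15 and −1.02, adjusted p = 0.000697, SE 0.15), and Suz12, a core subunit, in WENR-plus (−0.68, adjusted p = 0.00967, SE 0.16). The methylation partners gave 3 higher and 3 lower in WENR-minus against 1 and 4 in WENR-plus, with Zbtb38, a reader of methyl-CpG, higher by 1.13 (adjusted p = 0.000314, SE 0.16) and 1.45 (adjusted p = 0.000101, SE 0.16). Of the 6 genes for H3K27 demethylases and the H2A deubiquitinase complex, 2 were higher and 1 lower in WENR-minus and 0 higher and 3 lower in WENR-plus, with medians of −0.04 and −0.42. Lowest of these was Asxl3, which encodes a partner of the deubiquitinase Bap1. In WENR-minus it had 15 and 25 reads with Scramble-sgRNA against 1 and 1 with Cdx2-sgRNA, a ratio of 18.3 scaled for library size (exact 95% counting interval 4.75 to 157). In WENR-plus it had 53 and 46 against 0 and 0 reads, at least 31.5-fold lower with Cdx2-sgRNA when 3 counts over the group are taken as the floor. Of the 12 base excision and cofactor genes 3 were higher and 0 lower in WENR-minus and 1 higher and 2 lower in WENR-plus, with medians of 0.20 and −0.13. By library totals the 5 lists, in the order PRC1, further PRC2, partners, demethylases and deubiquitinase, and base excision, gave 8 and 1, 2 and 1, 4 and 1, 2 and 1, and 4 and 0 in WENR-minus and 5 and 5, 0 and 5, 1 and 5, 0 and 4, and 1 and 3 in WENR-plus. Of all genes 31.2% then passed in WENR-minus and 28.3% in WENR-plus. In distal WENR-minus organoids, where 9.76% of all genes passed, 1 gene was higher and 1 lower in each of the further PRC2, PRC1 and methylation partner lists, 0 and 0 in the demethylase and deubiquitinase list and 0 and 3 among base excision and cofactor genes. By library totals no gene of these lists was higher there, and 3 further PRC2 genes, 1 of PRC1, 2 partners and 5 base excision and cofactor genes were lower. Of all genes 12.5% then passed. In distal WENR-plus organoids edgeR called no gene of these lists, against 0.262% of all genes.

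The genes whose log2 CPM was most like that of each gene over the 16 libraries were taken by Pearson's r, the first 3 outside the 10. They were Lmnb1 (0.985), Nup107 (0.984) and Nsd2 (0.982) for Dnmt1, Pole (0.992), Mcm2 (0.991) and Mcm3 (0.991) for Uhrf1, and Kif20b (0.992), Mcm3 (0.991) and Ticrr (0.989) for Hells. For Dnmt3a they were Prr12 (0.956), Cwc22 (0.952) and Nudc (0.936), and for Dnmt3b Grwd1 (0.979), Trim28 (0.966) and Dkc1 (0.965). Ezh2 was most like Tra2b (0.956), Gins3 (0.953) and Hist1h1d (0.951), and Ezh1 most like Prdm1 (0.981), Tmbim1 (0.970) and Selenop (0.957). Tet2 followed Bnip3 (0.912), 1810037I17Rik (0.909) and Appl2 (0.906), and Tet3 followed Srf (0.962), R3hdm2 (0.962) and Dynll2 (0.961). For Tet1 the highest values were lower, 0.877 (Rab19), 0.871 (Zfp449) and 0.870 (Olfr77), at 0 to 28 reads. Pole, Mcm2 and Mcm3 belong to the replication machinery. By library totals 16 of these 30 genes stayed among the first 3 of their member, all 3 for Uhrf1 and Hells and none for Tet2.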

How the data were processed

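RNA of 16 organoid libraries was made with a stranded total RNA kit, and the deposited tables hold estimated counts (NumReads) and TPM for 140748 transcripts, which per the labels the authors made with Salmon 1.1.0. Of the transcripts, 139864 matched GENCODE vM21, and the 884 others, 0.257 to 0.510% of the counts of a library, were left out. Estimated counts, as deposited, were summed per gene, rounded and scaled by TMM. Low genes were removed with filterByExpr, and edgeR 4.0.16 (R 4.3.3) fitted 1 quasi-likelihood model over 8 groups, with Benjamini-Hochberg adjustment over 15289 genes and 8 residual degrees of freedom. A gene passed at an adjusted p under 0.05, with no limit on the fold. CPM is counts scaled to these TMM-adjusted library sizes. Alternatives were DESeq2 1.42.0, other scalings (library totals without TMM was chosen after seeing the data) and filters, length-scaled counts, blocks and leaving out single libraries. TPM, as the authors deposited it, served for levels between genes and for ratios, tested by exact sign flips over 8 cultures. The labels do not state that both media of a replicate number came from 1 culture. Deviations from the group means correlated at 0.281 to 0.589 within such cultures and at −0.0594 to 0.189 otherwise. Members and lists were chosen with earlier results of these data known. All 10 members were named, and of each other list up to 4 genes with the largest absolute log2 difference among those past the test in a comparison. Cell cycle lists came from Seurat 5.3.0. The scripts were tested on simulated data.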

Additional observations from a re-analysis of the deposited data

Results flagged for a closer look

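These results were singled out because a tested difference of effects passed edgeR's test at an adjusted p under 0.05. In proximal organoids the response to WENR-plus differed between the guides (Cdx2-sgRNA less Scramble-sgRNA) by −2.30 on the log2 scale for Dnmt1, −2.32 for Uhrf1, −0.88 for Dnmt3a, 0.94 for Ezh1 and −1.08 for Ezh2. The response to Cdx2-sgRNA differed between the regions (proximal less distal) by 2.15 for Uhrf1 and 1.25 for Tet2 in WENR-minus, and 0.82 for Ezh1 in WENR-plus. Of these 8 differences that of Tet2 passed in each of 17 alternatives, with a highest adjusted p of 0.0443. The other 7 each lost the call without at least 1 single library.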

How the results depend on the processing

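For 57 pairs of a gene and a comparison past the test, 797 alternative values were computed. Of these, 795 kept the direction, of which 656 stayed past the test and 139 did not, 92 of them without a library. The 2 that reversed are Tet3 between the media by library totals without TMM, chosen after seeing the data: 0.074 in distal Scramble-sgRNA and 0.16 in distal Cdx2-sgRNA organoids. Of the pairs, 28 passed under every alternative. Counts of the 10 genes past the test moved by over 1.5 times as follows, and the cause was not tested. DESeq2 gave 1 instead of 0 between the media in proximal Cdx2-sgRNA organoids, 2 instead of 0 between the guides in distal WENR-minus organoids, 4 instead of 2 and 2 instead of 1 for the guide effect in proximal minus distal (WENR-minus and WENR-plus), and 1 instead of 0 for the region effect between media. In the same order DESeq2 called 2913, 2318, 3437, 1596 and 263 of all 15289 genes, where edgeR called 2063, 1492, 2631, 871 and 11. Without a filter on low counts the guides in distal WENR-minus organoids gave 3, and the guide effect between regions 4 and 3. Of the 27429 genes then tested, 2424, 3510 and 1999 passed in these comparisons. Library totals gave 1 instead of 0 for the guides in distal WENR-minus organoids and 5 instead of 2 for the guide effect between regions in WENR-minus. Of all genes 12.5% and 20.5% then passed, against 9.76% and 17.2% after TMM scaling. With only the libraries compared in the fit, counts were 1 instead of 3 (guides, proximal WENR-minus), 1 instead of 2 (regions, Scramble-sgRNA WENR-minus), 3 instead of 5 (regions, Cdx2-sgRNA WENR-plus), 1 instead of 2 (guide effect between regions, WENR-minus) and 1 instead of 5 (medium effect between guides, proximal). Over all genes they were 2881 instead of 4728, 1071 instead of 1521, 2375 instead of 4480, 1813 instead of 2631 and 82 instead of 669 in that order. Length-scaled counts gave 1 instead of 5 for the medium effect between guides in proximal organoids (383 of all genes instead of 669). They gave 1 instead of 0 for the regions with Scramble-sgRNA in WENR-plus (237 of all genes instead of 324).

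Leaving out single libraries gave 3 to 6 calls instead of 7 between the media in proximal Scramble-sgRNA organoids, 1 to 4 instead of 3 and 4 to 6 instead of 7 between the guides in proximal WENR-minus and WENR-plus organoids, 0 to 2 instead of 2 between the regions with Scramble-sgRNA in WENR-minus, and 1 to 4 instead of 5 with Cdx2-sgRNA in WENR-plus. The guide effect between regions gave 1 to 4 instead of 2 in WENR-minus and 0 instead of 1 in WENR-plus, and the medium effect between guides in proximal organoids 0 to 5 instead of 5.

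With the replicate number as a block, the guides in distal WENR-minus organoids gave 1 instead of 0 and the guide effect between regions 4 and 3 instead of 2 and 1. Of all genes 1837, 3109 and 1178 then passed, instead of 1492, 2631 and 871. Of 28 pairs of groups, 9 had deviations correlated above 0.1, so the number alone did not pair the samples. A block for each culture, chosen after seeing the data, gave 1 instead of 0 between the media in proximal Cdx2-sgRNA organoids, where 4038 instead of 2063 of all genes passed. From protein-coding transcripts only, likewise chosen after seeing the data, the Tet1 share rose by 0.0495 percentage points (adjusted p = 0.715, exact permutation test) instead of 0.366. Dnmt3b and Tet1 are limited by depth, at 0 to 126 reads a library.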
